A study of Homo sapiens with 4 samples.

Results

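The genes examined here encode intermediate filament proteins. They are VIM, the 3 lamin genes LMNA, LMNB1 and LMNB2, and the 5 keratin genes KRT7, KRT8, KRT18, KRT19 and KRT80. These 9 genes are part of 69 annotated intermediate filament genes and of 20033 protein-coding genes of GENCODE on chromosomes 1 to 22, X and Y. They were chosen by name after the peak scores of these samples were known, with VIM among the genes whose peak at the start scored highest after RRN3 knockdown. Counts and scores at these genes are therefore a description and carry no test.

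RNA polymerase II (Pol II) was mapped by chromatin immunoprecipitation and sequencing (ChIP-seq) in SK-OV-3, a human ovarian cancer cell line, to ask how RRN3 influences Pol II transcription. RRN3 is an initiation factor of RNA polymerase I. One group carried a lentiviral short hairpin RNA against RRN3 (shRRN3) and the other a control hairpin against the bacterial LacZ gene (shLacZ). The labels do not say which of the designed RRN3 hairpins was used, and no nutrient stress is named for either group. The data were 1 Pol II peak list per hairpin, without replicates, so no difference could be set against a spread between libraries and no p-value is given.

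Intermediate filaments are rope-like polymers of coiled-coil proteins. Vimentin fills the cytoplasm of mesenchymal cells and of many carcinoma lines, type I and type II keratins pair to form the filaments of epithelia, and lamins line the inner nuclear membrane. KRT8, KRT18, KRT7 and KRT19 are the keratins of simple epithelia. Loss of keratins with gain of vimentin is a textbook sign of the epithelial to mesenchymal transition.

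The shLacZ list held 3920 peaks on the primary chromosomes and the shRRN3 list held 14322, which was 3.65 times as many. Median widths were 306 bp and 432 bp. The score of a peak is the value its caller gave it, with a highest value of 3100 in both lists. It depends on depth, which the lists do not give, so it was used to rank peaks within a list, and a percentile below is the share of peaks of the same list with an equal or lower score. Of 9 marker genes of ovarian carcinoma epithelium, PAX8 had a peak in shLacZ (score 148, percentile 90.7). In shRRN3, PAX8, EPCAM, KRT7, KRT8 and KRT18 had a peak, and the PAX8 start scored 354 (percentile 98.3). The KRT7 peak lay away from its start, and the higher EPCAM peak lay at its outermost annotated start. KRT8 and KRT18 shared their highest peak. KRT19, ERBB2, WT1 and MUC16 had a peak in neither list. Of 9 markers of leukocytes, endothelium, fibroblasts, muscle and nervous system, 0 had a peak in shLacZ and 2 (PECAM1 and VWF) had one in shRRN3, away from their starts. Over all protein-coding genes, 13.4% had a peak in the gene or 2 kb around it in shLacZ and 36.9% in shRRN3.

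Pol II peaks within a gene or 2 kb around it were found at 3 of the 9 filament genes in shLacZ, namely VIM, LMNA and LMNB1. They were found at 8 of 9 in shRRN3. KRT19 was the gene without a peak in either list, a class that held 61.7% of all protein-coding genes. The background shares were, as above, 13.4% and 36.9%. None of the 9 had a peak in shLacZ alone, a class that held 1.40% of all protein-coding genes. LMNB2, KRT7, KRT8, KRT18 and KRT80 had one in shRRN3 alone, a class that held 24.9% of all protein-coding genes. The spans of the 9 genes ran from 4036 to 60398 bp with a median of 23019 bp, against a median of 27471 bp for all protein-coding genes.

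The start of a gene was first taken as the outer bound of its annotated span, and a peak sharing any base with the 1 kb on either side was counted as a start peak. By this rule VIM and LMNB1 had a start peak in shLacZ, and VIM, LMNB1, KRT8, KRT18 and KRT80 had one in shRRN3. The shares over all protein-coding genes were 7.75% and 24.6%. Several of these genes have alternative promoters, so the start of the MANE Select transcript, the representative transcript agreed between RefSeq and Ensembl, was used as well. It added LMNA in both lists and gave 3 of 9 in shLacZ and 6 of 9 in shRRN3, beside 8.31% and 26.0% of all protein-coding genes.

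The 9 genes together held 6 distinct peaks in shLacZ and 22 in shRRN3. The ratio of 3.67 was close to the 3.65 of the whole lists. Peaks covered 4106 bp and 16145 bp of their windows, a ratio of 3.93, against 4.80 for all peaks. VIM carried 3 of the 6 and 11 of the 22. Without VIM the numbers were 3 and 11 peaks over 1659 bp and 7472 bp. A counterpart in shRRN3 that shared at least 1 base existed for 5 of the 6 shLacZ peaks, which is 83.3% with an exact (Clopper-Pearson) 95% interval from 35.9% to 99.6%, beside 66.2% over the whole shLacZ list. Conversely, 6 of the 22 peaks in shRRN3 had a shLacZ counterpart, which is 27.3% with an interval from 10.7% to 50.2%, beside 16.9% over the whole list. These intervals cover counting error over peaks only. They treat the peaks as independent, although VIM alone carried 3 of the 6 and 11 of the 22, so they test nothing.

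**Figure D1:**
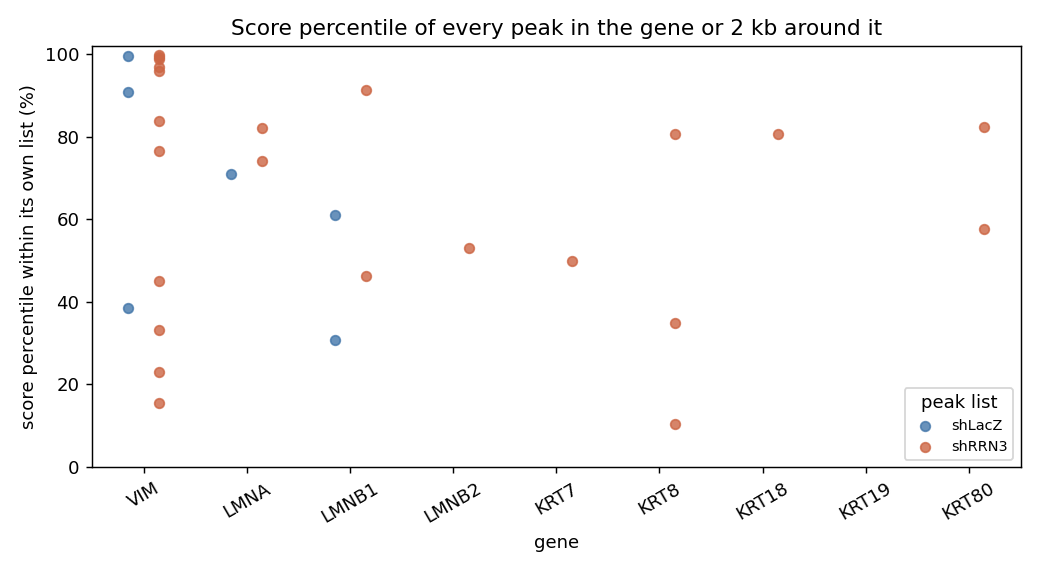
Score percentile (y axis, percent, within its own list) of every peak in each of the 9 genes or 2 kb around it, with 1 point per peak and the KRT8 and KRT18 columns sharing the peak at 80.6. VIM holds peaks from 15.5 to 99.8 in shRRN3, no shLacZ point appears at LMNB2 or at any keratin gene, and KRT19 is empty.

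VIM (ENSG00000026025.16, chromosome 10, 17228241 to 17237593, plus strand, GRCh38) encodes vimentin and carried the strongest peaks of the 9 genes in both lists. Its 10 exons span 9353 bp. The stretch of 100 bases before its start and the last 30 bases of the gene are shown because peaks lie near both ends. The bases before the start lie under a peak of shRRN3 alone, and the last 30 bases partly under a peak of shLacZ alone. Capitals mark GGGCGG, a GC box, in the first and AATAAA, the canonical polyadenylation signal, in the second. Both are on the plus strand of GRCh38.
VIM before the start (chr10:17228141-17228240): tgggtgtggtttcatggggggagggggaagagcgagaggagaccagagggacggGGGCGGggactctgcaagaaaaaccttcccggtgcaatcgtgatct
VIM end (last 30 bases): ttctgcttcAATAAAtctttggaaaaactc

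In shLacZ, VIM had 3 peaks. The peak nearest the start (17228971 to 17229577) was 607 bp wide with a score of 148, rank 360 of 3920. It began 730 bp past the start and covered the end of intron 1 and part of exon 2. A second peak of 221 bp (17237361 to 17237581) lay in exon 10, the last exon, with a score of 60.1. The third (17237803 to 17239421) was 1619 bp wide, began 210 bp past the end of the gene and scored 872, rank 21 of 3920. The control list thus held its highest VIM score past the gene and not at its start.

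In shRRN3, VIM had 11 peaks. The start peak (17228036 to 17229543) was 1508 bp wide, ran from 205 bp before the start to 1302 bp past it, and scored 623, rank 82 of 14322. Between the start peak and the end of the gene lay 8 further peaks, which touched exons 2 to 6 and 8 to 10 and much of intron 3. The highest of these scored 419 (17231932 to 17233071, rank 174, inside intron 3) and the lowest 54.6 (17235626 to 17235885, rank 12109). The others scored 270, 133, 243, 69.98, 111 and 57.8. None of these 8 was overlapped by a shLacZ peak, beside 16.9% of peaks over the whole shRRN3 list that had such an overlap. The gaps between the 11 peaks ran from 7 to 817 bp, with a median of 287 bp.

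Past the end of VIM lay a shRRN3 peak 307 bp wide that scored 62.7 and, 7 bp further on, the highest-scoring VIM peak of that list (17238036 to 17239876). This peak was 1841 bp wide and scored 995, rank 34 of 14322. It reached 2283 bp past the end, against 1828 bp for the shLacZ peak. The peaks shared 1386 bp, which was 75.3% of the shRRN3 peak. VIM was the 1 gene of the 9 with a peak in the 2 kb past the end in shLacZ, beside 1.51% of protein-coding genes, and VIM, LMNB2 and KRT8 had one in shRRN3, beside 5.36%. Among the genes with such a peak, VIM had the score of rank 3 of 302 in shLacZ and rank 11 of 1073 in shRRN3. When past-end peaks within 1 kb of another coding start were left out, its ranks were 3 of 159 and 7 of 642. No annotated gene overlapped the past-end peaks of VIM.

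The centre of the stretch that both past-end peaks share is printed because it carries the highest score of the 9 genes in each list. It lies 1135 bp past the end of VIM on the plus strand and has a GC share of 41.0%.
VIM past the end (chr10:17238678-17238777): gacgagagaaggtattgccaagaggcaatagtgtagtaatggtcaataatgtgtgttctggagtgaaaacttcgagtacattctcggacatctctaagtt

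**Figure D2:**
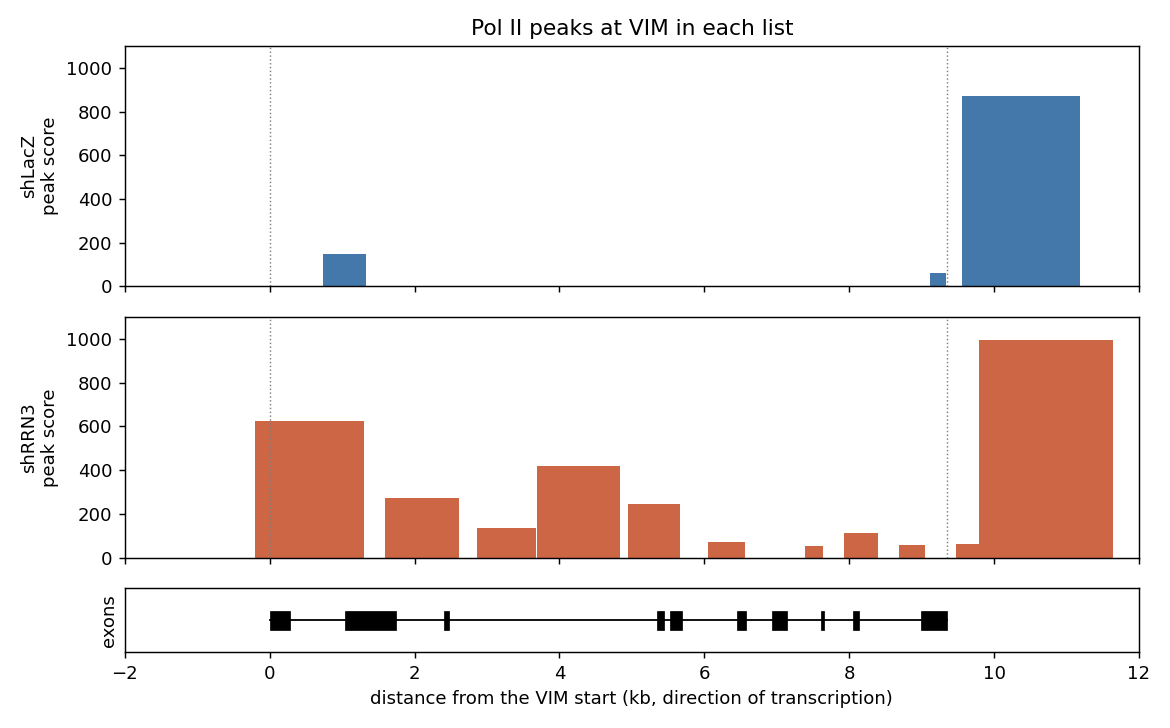
Pol II peaks at VIM, with distance from the start in kb on the x axis, peak score on the y axis, bar width equal to peak width and exons as black boxes. Dotted lines mark the start and the end of the gene. Both lists have their highest bar past the end (872 and 995), and the bars between start and end are in shRRN3 apart from the shLacZ peaks that begin at 730 bp and at 9120 bp.

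The share of VIM under peaks differed between the lists by region. In the first kb of the gene, 27.0% of bases were covered in shLacZ and 100% in shRRN3. In the rest of the gene the shares were 6.68% and 67.1%. In the 2 kb past the end they were 81.0% and 93.3%, and in the 2 kb upstream 0% and 10.3%. Over the whole gene, peaks covered 8.85% in shLacZ and 70.6% in shRRN3. As high a share was reached by 179 of 20033 protein-coding genes in shLacZ and by 42 in shRRN3, VIM included, and as many peaks by 175 and 50 genes. Taking from shRRN3 as many of its top-scoring peaks as shLacZ holds, 3920, kept 7 of the 11 at VIM.

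**Figure D3:**
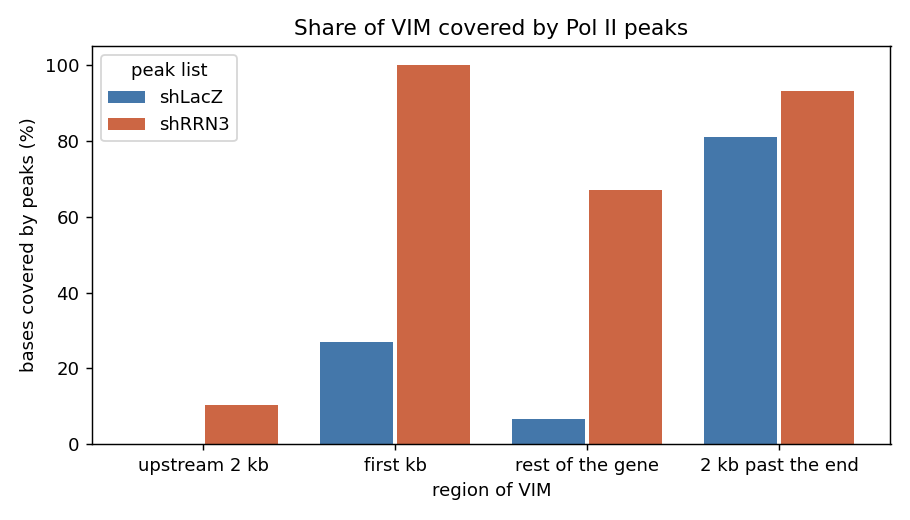
Percent of bases covered by peaks (y axis) in 4 regions of VIM (x axis), with 1 bar per list. The difference in percent of bases is widest in the first kb (27.0% in shLacZ and 100% in shRRN3), followed by the rest of the gene (6.68% and 67.1%).

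The start peaks of VIM overlapped over 573 bp, which was 94.4% of the shLacZ peak. From shLacZ to shRRN3 the upstream edge moved by -935 bp, from 730 bp inside the gene to 205 bp before its start, and the downstream edge by -34 bp. These distances are from the MANE Select start of VIM, whose exon 2 runs from 1035 to 1744 bp. Edges were not compared at other VIM transcript starts. Over the 1434 protein-coding genes with a peak at the MANE Select start in both lists, the upstream edge moved by -95 bp at the median (quartiles -273 and -5 bp). The VIM start peak was 2.48 times as wide in shRRN3, against a median of 1.47 (quartiles 1.11 and 2.07). The midpoint of the shLacZ peak lay beyond 1 kb from the start, so a rule that counts midpoints gives VIM a start peak in shRRN3 alone, although the peaks overlap.

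The GC share of the 200 bp around the midpoint was 68.5% for the VIM start peak in shLacZ and 67.0% in shRRN3. It was 41.5% and 48.0% for the highest past-end peaks, beside medians of 48.5% and 48.0% over all peaks of the lists. VIM-AS1, a noncoding gene on the opposite strand, overlaps the start peaks and the next shRRN3 peak, and another noncoding gene, ENSG00000234961, overlaps the shRRN3 peaks of scores 243 and 69.98. Peaks carry no strand, so reads of VIM and of these genes cannot be told apart there. By score percentile of the highest peak (99.5 in shLacZ and 99.8 in shRRN3), the nearest of 2406 genes with peaks in both lists were THOC6, HCFC1R1 and TNFRSF12A at 99.4 and 99.8, a distance of 0.0809 percentile points over the 2 lists. These 3 genes share the same peaks.

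The lamins differed among themselves. LMNB1 and LMNA had start peaks in both lists, while LMNB2 had none at its start. The 30 bases before the MANE Select start of LMNA and the 100 bases before that of LMNB1 are shown, since the peaks of both lists cover these bases. The LMNA stretch is kept short because it is exonic in another LMNA transcript. Capitals mark CCGCCC, the GC box on the opposite strand, and both are on the plus strand.
LMNA (last 30 bases of chr1:156114611-156114710): ttagagcctttgccccggcgtcggtgactc
LMNB1 (chr5:126777036-126777135): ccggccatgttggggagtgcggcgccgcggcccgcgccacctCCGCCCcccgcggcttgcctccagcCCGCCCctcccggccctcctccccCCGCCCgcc

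LMNA (ENSG00000160789.24, chromosome 1, 156082573 to 156140081, plus strand) encodes the A-type lamins A and C. Its MANE Select start lies 32138 bp inside the annotated span. The shLacZ peak (156114563 to 156114946) was 384 bp wide, scored 84.3 and ran from 148 bp before that start to 235 bp past it. The shRRN3 peak (156114551 to 156115032) was 482 bp wide, scored 127 and ran from 160 bp before to 321 bp past it. The shLacZ peak lay wholly within the shRRN3 peak. Its percentile was 71.0 in shLacZ and 82.2 in shRRN3, a difference of 11.2 points, below the median of 15.3 points over the 1434 genes. The outermost LMNA start, 108 bp from the start of MEX3A, had no peak within 1 kb in either list.

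A further shRRN3 peak (156126316 to 156126756, 441 bp, score 106) lay in intron 1 of LMNA, 11605 bp past the MANE Select start, without a shLacZ counterpart. No peak lay past the end of LMNA in either list. The genes nearest to LMNA by percentile in both lists were DUT, INO80 and VPS37A, at distances of 0.735, 0.896 and 1.45 points.

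LMNB1 (ENSG00000113368.12, chromosome 5, 126776623 to 126837020, plus strand) encodes lamin B1, a B-type lamin. The start peak was 896 bp wide in shLacZ (126776479 to 126777374, score 73.6) and 952 bp wide in shRRN3 (126776338 to 126777289, score 176). The widths differed by a factor of 1.06, below the lower quartile of 1.11 over the 1434 genes. Its percentile was 61.0 in shLacZ and 91.4 in shRRN3, a difference of 30.4 points, between the median of 15.3 and the upper quartile of 39.0. A second peak in intron 1 was present in both lists. In shLacZ (126778102 to 126778480) it was 379 bp wide with a score of 57.7, at percentile 30.8. In shRRN3 (126778112 to 126778736) it was 625 bp wide with a score of 71.1, at percentile 46.3. LMNB1 was thus the gene of the 9 whose peaks matched pair by pair.

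The upstream edge of the LMNB1 start peak reached LMNB1-DT, a divergent noncoding gene, in both lists. Over 60398 bp of gene, no LMNB1 peak lay beyond the first 2113 bp. Peaks covered 1.87% of its span in shLacZ and 2.14% in shRRN3. The genes nearest by percentile were the histone genes H3C11 and H4C13, at 0.789 points, and AMIGO2, at 1.40 points.

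LMNB2 (ENSG00000176619.13, chromosome 19, 2427638 to 2456959, minus strand) encodes lamin B2. Its peak was found in shRRN3 (2427347 to 2428227, 881 bp, score 77.1), at the far end of the gene. It spanned the annotated end and reached 291 bp past it. This peak also lay at the start of TIMM13, an adjacent gene on the same strand that encodes a mitochondrial import chaperone, so its position assigns it to neither gene. The nearest shLacZ peak was 19004 bp from LMNB2.

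None of the 5 keratin genes had a peak in shLacZ, and 4 of them had peaks in shRRN3. Over all protein-coding genes the shares were 13.4% and 36.9%, and 1 of the shRRN3 peaks was shared by KRT8 and KRT18. The shLacZ peak nearest to each gene lay 20601 bp from KRT80, 84125 bp from KRT7, 146503 bp from KRT18, 149455 bp from KRT8 and 160387 bp from KRT19. The 30 bases before the MANE Select start of KRT8 are shown from its coding strand, since KRT8 was the gene of the 9 with a TATAAA word near its start. The stretch is kept short because the bases before it are exonic in another KRT8 transcript. Capitals mark overlapping TATAAA words of both strands.
KRT8 (minus strand, last 30 bases of chr12:52905077-52905176): ccggggctgggatctctTTTATAAAaggcc

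KRT8 (ENSG00000170421.13, chromosome 12, 52897187 to 52949954, minus strand) and KRT18 (ENSG00000111057.11, chromosome 12, 52948871 to 52952906, plus strand) encode the type II and type I partners of the simple epithelial filament. Their annotated spans share 1084 bp, because transcripts of KRT8 begin inside KRT18, while the MANE Select starts are 44042 bp apart. The highest peak of both genes was 1 shRRN3 peak (52949520 to 52950132, 613 bp, score 121, rank 2782 of 14322). It lay 402 to 1014 bp past the MANE Select start of KRT18, over the end of exon 1 and part of intron 1, and at the outermost KRT8 start. Peaks carry no strand, so it cannot be divided between the genes.

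The MANE Select start of KRT8 carried 1 shRRN3 peak (52904181 to 52904681), 501 bp wide with a score of 63.7, 395 to 895 bp into the gene, in exon 1 and intron 1. A peak of 365 bp and score 52.9 (52895314 to 52895678) lay 1509 bp past the KRT8 end, near the lowest scores listed. The percentiles of these peaks were 34.8 and 10.3. Among the 3920 top-scoring shRRN3 peaks, the one shared with KRT18 was the KRT8 peak that was kept. KRT8 has 51 annotated pseudogene copies, KRT18 has 68 and KRT19 has 5, and how reads that match several copies were treated is not given in the sources used here. Of these 124 copies, 1 had a peak, KRT8P12, in both lists, and that peak lay at the start of KPNA4.

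KRT80 (ENSG00000167767.14, chromosome 12, 52168996 to 52192014, minus strand) encodes a type II keratin. It had the highest score of the 5 keratin genes described here, in a shRRN3 start peak of 797 bp (52191764 to 52192560, score 127, rank 2518 of 14322). That peak ran from 546 bp before the start to 250 bp past it. A second, wider peak of 1178 bp (52189733 to 52190910, score 81.9) lay in intron 1. LINC00592, a noncoding gene on the opposite strand, overlaps both.

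KRT7 (ENSG00000135480.17, chromosome 12, 52232520 to 52252186, plus strand), a type II keratin of ductal epithelia, carried 1 shRRN3 peak (52243749 to 52244385), 637 bp wide with a score of 74.5. It lay in intron 6, 10506 bp past the MANE Select start, and no peak lay at the start. KRT19 (ENSG00000171345.13, chromosome 17, 41523617 to 41528308, minus strand), a type I keratin of simple epithelia, had no peak in its 4692 bp or 2 kb around it. The nearest peak to KRT19 was 149972 bp away in shRRN3.

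**Figure D4:**
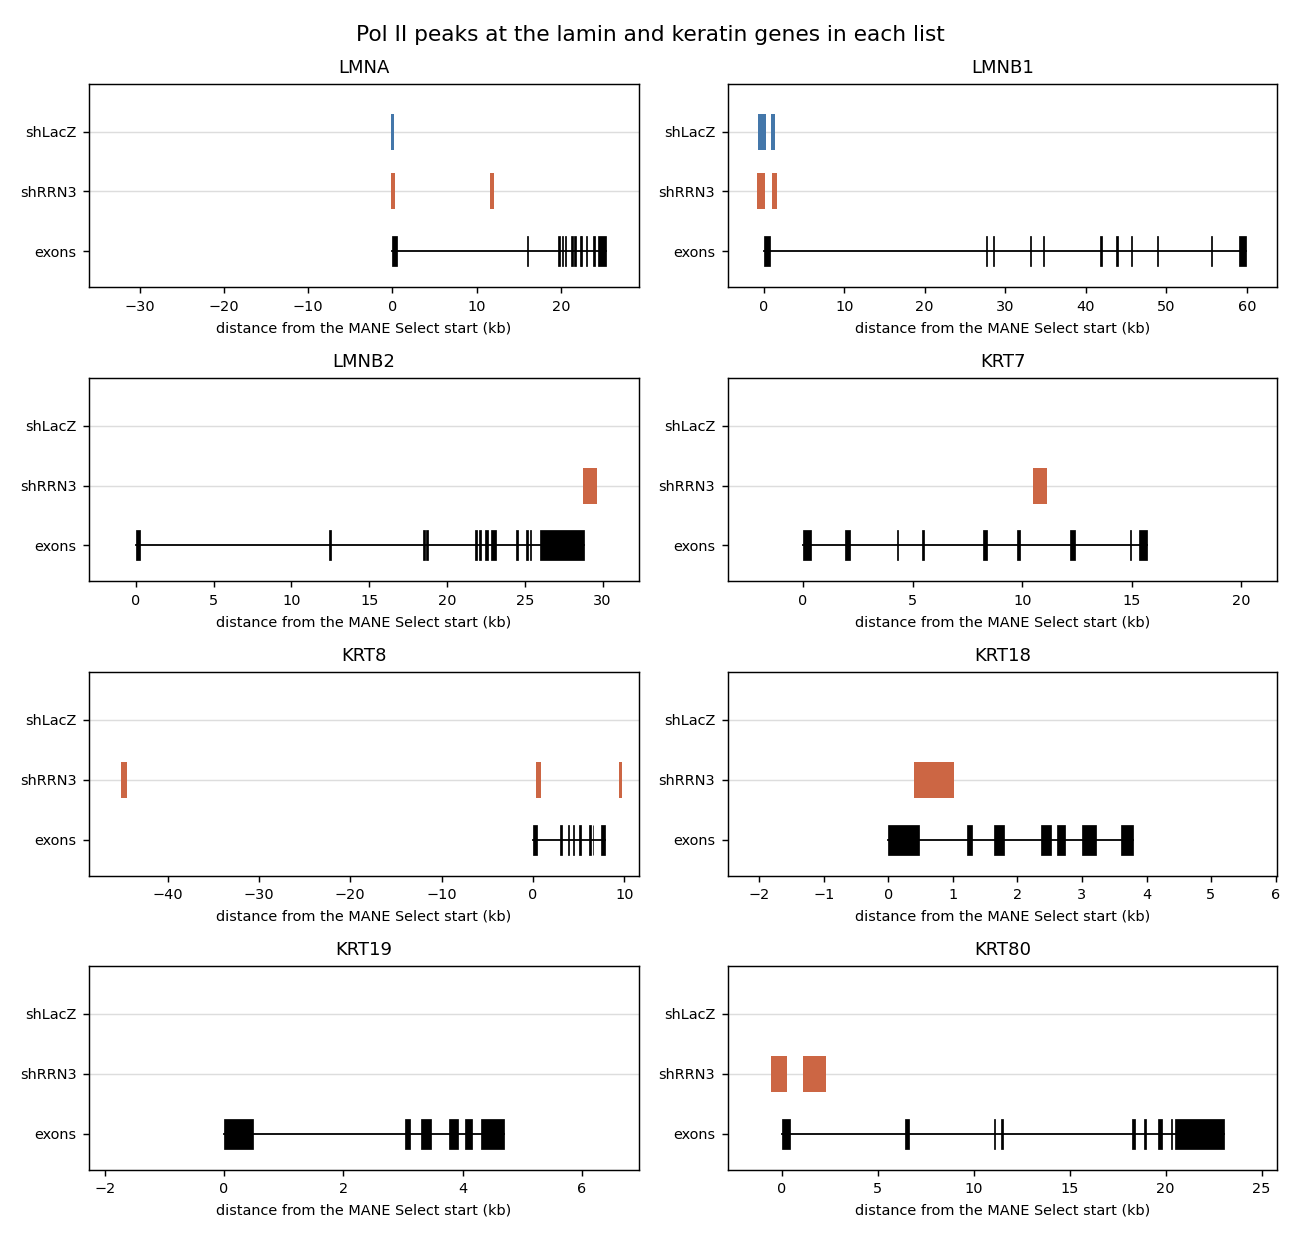
Peaks of each list (coloured boxes, to scale) at the 3 lamin and 5 keratin genes, with distance from the MANE Select start in kb on the x axis and exons below as black boxes with a hairline edge. LMNA and LMNB1 have peaks of both lists at the start, LMNB2 and KRT7 have a shRRN3 peak far from it, and the KRT19 panel has none.

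Motifs were searched on both strands from 250 bases before to 50 after the MANE Select start. GGGCGG was found at 8 of the 9 genes, all except KRT8, and at 62.2% of 19061 promoters. TATAAA was found at KRT8 alone, beside 9.52% of promoters. On the gene strand it began 11 bases before the KRT8 start. A TATAAA on the gene strand that began 40 to 20 bases before the start was found at 4.04% of promoters, KRT8 not among them. CCAAT was found at LMNA, LMNB1, KRT7 and KRT19, beside 36.1%, and TGANTCA, the AP-1 word, at LMNA, beside 5.42%. The GC share of these windows was 48.0% at VIM, below the lower quartile of 55.3% over all promoters, and from 61.0% at KRT8 to 74.0% at KRT18 at the other 8. AATAAA lay in the last 30 bases of 7 of the 9 MANE Select transcripts, not at LMNA and KRT7, beside 58.1% of 19061. KRT19, the gene without a peak, held GGGCGG and CCAAT.

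The other members of the family and the proteins that filaments attach to were counted from fixed lists. Of the 60 other intermediate filament genes, 0 had a start peak in shLacZ and 1 in shRRN3, BFSP1, a lens filament gene. Over all protein-coding genes the shares were 7.75% and 24.6%. The BFSP1 peak (score 60.2) also lay at the start of DSTN. Of the 49 other keratin genes, 0 had a start peak in either list. KRT10, a keratin of the epidermis, had 3 peaks in shRRN3, up to a score of 224, of which none was a start peak. The peak of score 224 also overlapped KRT10-AS1, and another, of score 84.7, lay outside the gene. KRT28 had a shLacZ peak of score 65.1, not at its start and outside the gene, and none in shRRN3. SYNM, which encodes synemin, had a shRRN3 peak of score 67.4 at its MANE Select start and another of score 87.0 inside the gene.

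Among 18 genes that anchor or process lamins, 2 had a start peak in shLacZ and 10 in shRRN3. The shares over all protein-coding genes were 7.75% and 24.6%. By the MANE Select start 3 and 12 had one, beside 8.31% and 26.0%. FNTA, a subunit of the enzymes that prenylate lamins, scored 53.0 in shLacZ (percentile 15.8) and 233 in shRRN3 (percentile 95.6). TMPO, which encodes lamina-associated polypeptide 2, scored 52.2 and 226 (percentiles 12.7 and 95.3). LEMD2, an inner nuclear membrane protein, scored 100 and 131 (percentiles 79.9 and 83.3). ZMPSTE24, the prelamin A protease, scored 109 in shRRN3 and had no shLacZ peak. SYNE2, a nesprin of the nuclear envelope, had the highest lamina partner score of shLacZ (119), away from its start, and its highest shRRN3 peak scored 72.8 at percentile 48.1, against 85.8 in shLacZ. LEMD3 and BANF1 had start scores of 87.1 and 75.9 in shRRN3 and no start peak in shLacZ. Among 14 genes of desmosomes and filament linkers, 0 had a start peak in shLacZ and 3 in shRRN3, or 4 by the MANE Select start, beside 24.6% and 26.0% of all protein-coding genes in shRRN3. The MANE Select start scores were those of DSG2, a desmosomal cadherin (score 161), DSP, which encodes desmoplakin (92.8), DST (88.5) and PLEC, which encodes plectin (52.5).

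**Figure D5:**
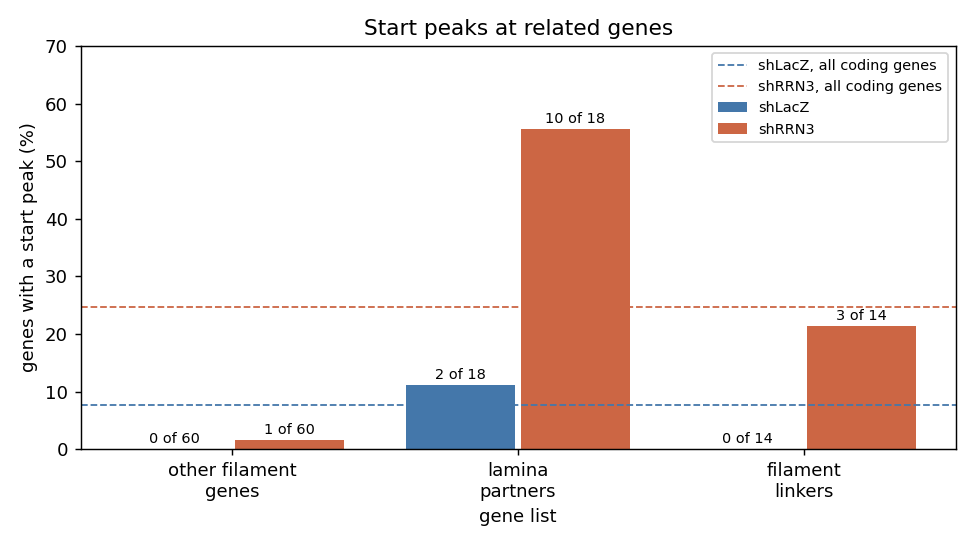
Percent of genes with a start peak (y axis) in 3 gene lists (x axis), with 1 bar per list of peaks, counts above the bars and dashed lines at the shares over all protein-coding genes (7.75% and 24.6%). The other filament genes stand at 0 of 60 and 1 of 60, the lamina partners at 2 of 18 and 10 of 18.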

How the data were processed

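Pol II ChIP-seq libraries of shLacZ and shRRN3 SK-OV-3 cells were sequenced on the BGISEQ-500 platform. The authors deposited 1 peak list per library, whose names carry that of the program MACS, with coordinates and a score for each peak. The build is hg38 per the submitters' processing notes. The aligner, the version and threshold of the peak caller, the handling of duplicates and whether the inputs served as background are not given in the sources used here. The score has no stated unit. The 2 input libraries were not analysed here, and read depth is unknown from these lists.

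Peaks were taken as 1-based intervals and assigned to GENCODE release 44 genes by at least 1 shared base. The genes and gene lists were chosen with earlier results of these data known. All 9 genes are named, and up to 6 genes of each related list with the highest start scores. KRT10, KRT28, SYNE2, ZEB2, CDH1 and CDH2 were named after their values were seen. The MANE Select start, the removal of VIM, the removal of peaks at another coding start, the polyadenylation word and the past-end stretch were added after the values were seen. Sequences and motifs were read from the hg38 genome at MANE Select starts, since the RefSeq promoter table held 5 of the 9 genes. Some sequences are not reported here. Peak assignment was checked on simulated lists and overlaps against bedtools (2.31.1). Python (3.11.15), scipy (1.17.1) and matplotlib (3.10.9) were used for the calculations and plots.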

Additional observations from a re-analysis of the deposited data

How the results depend on the processing

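Among 93 values under alternatives, for 17 counts, ratios and shares, 78 stayed within 1.5 times of the reported value or, for shares, within its interval, and 15 did not. With the start window narrowed to 0.5 kb, or with peak midpoints, VIM lost its shLacZ start peak, which left 1 of the 9 genes (LMNB1) with a start peak in shLacZ and 1 in both lists. Midpoints also left 1 intermediate filament gene with a start peak in shLacZ. Reducing the shRRN3 list to 3920 peaks, with a lowest score of 103, gave 12 peaks and 10514 bp at the 9 genes and ratios of 2 for peaks and 2.56 for bases, since by construction it drops lower-scoring peaks of that list alone. LMNB2 and KRT7 then had no peak. A score of at least 66.05 was also required in both lists. This is the median of all 4014 shLacZ peaks, including those off the primary chromosomes. It left 4 shLacZ peaks at the 9 genes, with 100% overlap. Without VIM there were 3 and 11 peaks over 1659 and 7472 bp, and without the 2 kb margin shLacZ covered 2343 bp. Peaks at another coding start carried LMNB2 and KRT18, and without them 6 of 9 genes had a shRRN3 peak. A 5 kb margin added no peak. Percentiles of the highest peaks were higher for 2 and lower for 9 among start peaks, and higher for 4 and lower for 7 by width. No paired analysis was possible because each hairpin had 1 library. With unknown depth and 1 library per hairpin, the longer shRRN3 list and an effect of the knockdown cannot be told apart.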

Other observations

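Genes that accompany vimentin and keratin in mesenchymal and epithelial states were counted from a list of 9. A start peak was present at 2 of them in shLacZ and at 6 in shRRN3, beside 7.75% and 24.6% of all protein-coding genes. By the MANE Select start the counts were 2 and 5, beside 8.31% and 26.0%. FN1, which encodes the matrix protein fibronectin, had 5 peaks in shRRN3, with a start score of 190 at percentile 93.0, and no shLacZ peak. SNAI1, a transcriptional repressor of epithelial genes, had a start peak in both lists. Its scores were 54.1 in shLacZ (percentile 19.4) and 141 in shRRN3 (percentile 85.7). SNAI2, a relative of SNAI1, had start scores of 74.4 and 130 (percentiles 61.7 and 83.1). ZEB1 and TWIST1, other regulators of the same class, had start scores of 76.1 and 64.4 in shRRN3 and no start peak in shLacZ. EPCAM, an epithelial adhesion protein, had 2 peaks in shRRN3, the higher of score 63.0, and none in shLacZ. ZEB2, related to ZEB1, had a shLacZ peak of score 54.2 inside the gene and none in shRRN3. CDH1 and CDH2, the epithelial and neural cadherins, had a peak in neither list.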
